A study of Drosophila melanogaster with 6 samples.

Results

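The cuticle protein genes of the Cpr, Ccp84A and Tweedle families were followed through late larval life in Drosophila melanogaster. They were defined by name, with earlier results of these data known. Every gene whose symbol begins with Cpr and a digit, with Ccp84A or with Twdl was taken. This gave 99 of the 15741 entries of the expression table. Of these, 69 are Cpr genes, 7 are Ccp84A genes and 23 are Twdl genes. The 14 Lcp genes, which belong to the same wider family, were left out. RNA was sequenced from whole wandering larvae of the last instar, kept at 25 °C, with 1 library for each of 3 genotypes at 2 stages. Each library came from a pool of more than 20 animals. The genotypes were wild type, Cmi depletion and Trr depletion, and both depletions were made by a short hairpin RNA under the GawB69B Gal4 driver. Which stock served as wild type, and whether it carried the driver, is not said in the labels. Blue gut larvae still hold food dye in the gut and are early in wandering, whereas clear gut larvae have emptied it and are close to forming the puparium.

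Insect cuticle is a composite of chitin fibres and proteins, secreted by the epidermis and by other ectodermal tissues such as the trachea. Cpr and Ccp84A proteins carry the Rebers-Riddiford consensus, a chitin-binding domain, and different sets of them go into soft larval and hard pupal or adult cuticle. Tweedle proteins form a separate insect family, and dominant alleles of TwdlD (Tubby) make larvae short and stout. Ecdysone pulses time the cuticle genes through a cascade of nuclear receptors. Trr (gene trr) is a histone H3 methyltransferase that acts at enhancers, and Cmi (gene Lpt) is its partner in a COMPASS-like complex.

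The libraries held 23.1 to 25.0 M reads on genes, and values are RPKM, reads per kilobase of gene, scaled to the library's reads on genes. Where 3 values follow each other they are in the order wild type, Cmi depletion and the library labelled Trr depletion. Lpt measured 5.57, 4.44 and 5.95 RPKM at blue gut against 6.66, 5.11 and 6.95 at clear gut, lowest in Cmi depletion at both stages. The gene trr measured 2.925, 4.49 and 3.60 RPKM at blue gut against 6.19, 5.93 and 4.76 at clear gut, so the blue gut library labelled Trr depletion was above wild type, against its label. With no replicate in any group the spread between pools is unknown. The limma test used additive terms for genotype and stage on log2(RPKM + 1), a scale that understates the change of low genes, over the 11467 genes whose mean RPKM reached 1. Its error is the extent to which a stage change differs between genotypes, and p-values were adjusted over all genes tested by Benjamini-Hochberg at 0.05. Intervals are exact 95% counting intervals of a ratio between 2 libraries and cover counting error only. In bulk samples, fewer cells of a type and less RNA per cell cannot be told apart.

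Expression was concentrated in few members. In wild type at blue gut 42 of the 99 reached 1 RPKM, 24 reached 10 RPKM and 5 reached 100 RPKM, against 27, 12 and 3 at clear gut. Cmi depletion at clear gut had the fewest detected members, with 20 at 1 RPKM or more and 28 at 0. Cpr49Ac (gene 36348, chromosome 2R, 12386666 to 12390057, dm6) and Cpr78E (gene 40408, chromosome 3L, 21666452 to 21666980) were the most abundant. Cpr49Ac alone made up 28.0%, 30.6% and 32.7% of the members' summed RPKM at blue gut but 79.7%, 79.4% and 75.5% at clear gut. Without it, the members summed to 1656.7, 1180.7 and 1069.4 RPKM at blue gut against 1075.8, 442.8 and 1243.9 at clear gut. The sum without Cpr49Ac was thus smaller at clear gut in wild type and Cmi depletion, but larger where Trr was labelled as depleted. That larger sum came from Cpr78E, which went from 433.5 RPKM at blue gut to 809.4 at clear gut there, more than the sum rose. With Cpr78E also left out, the sum was smaller at clear gut in every genotype.

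The test covered 39 members, 35 Cpr, 1 Ccp84A and 3 Twdl genes, and 60 fell below the limit on the mean. The members nearest to the limit were Cpr49Ad (0.914 RPKM), Ccp84Aa (0.842) and Cpr72Eb (0.719) below it and Ccp84Ag (1.03), Cpr67Fb (1.11) and Cpr66Cb (1.18) above it. Since a member could pass through a single stage in which it was high, counts over these 39 are a description.

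**Figure D1:**
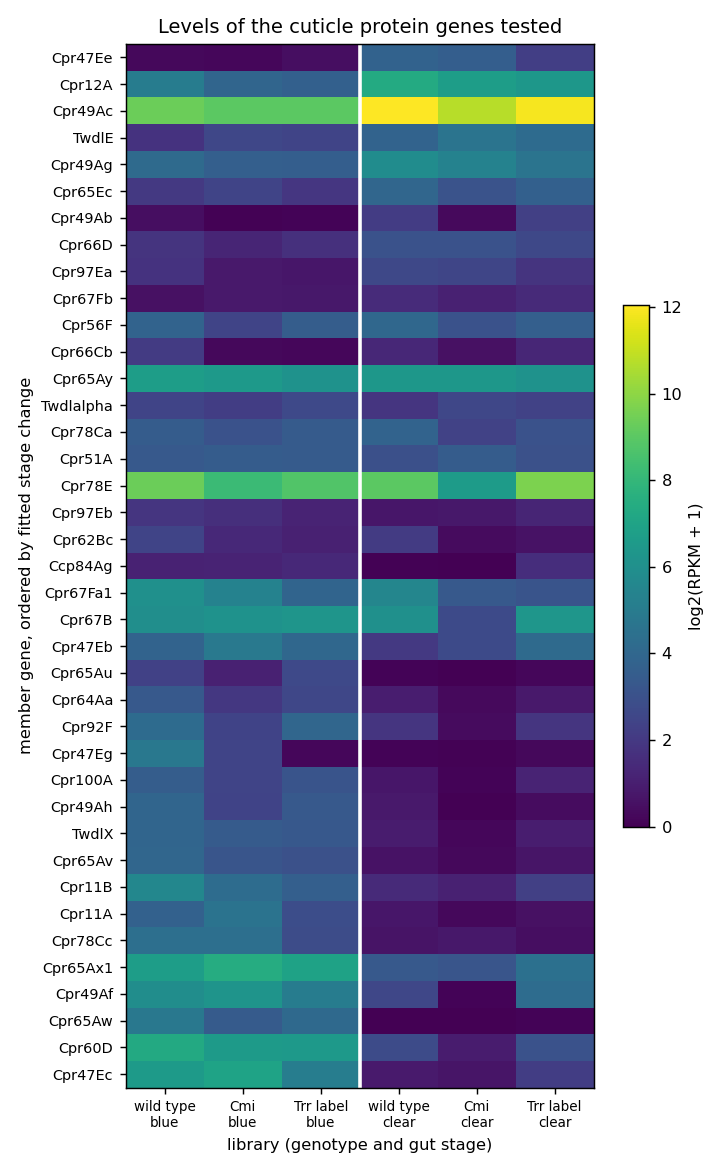
Level of the 39 tested members, as log2(RPKM + 1) by colour, in the 6 libraries, with blue gut on the left and clear gut on the right of the white line. Rows run from the largest fitted rise (top) to the largest fall (bottom), and Cpr49Ac is the brightest row at clear gut.

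Clear gut was compared with blue gut to follow cuticle genes through late wandering. The members split into a smaller set that rose and a larger set that fell. Cpr49Ac, Cpr12A, Cpr47Ee, TwdlE and Cpr49Ag led the rise, and Cpr47Ec, Cpr60D, Cpr65Aw and Cpr65Ax1 fell to a small part of their blue gut level. Limma called 8 of the 39 higher and 14 lower, which is 20.5% and 35.9%, where 24.2% of all genes tested were called higher and 11.1% lower. The median log2 change of the 39 was -0.72, beside 0.15 for all genes tested. At an unadjusted p below 0.05 there were 10 higher and 17 lower (33.1% and 13.8% of all genes tested). All 3 clear gut libraries lay above all 3 blue gut libraries for 9 members (38.5% of all genes tested) and below them for 15 (14.0% of all genes tested). Limma called 0 of the members without either wild-type library, and 0.0% of all genes tested there. At an unadjusted p below 0.05 each of these fits had 8 members higher and 17 lower, and all 22 called members kept their direction. The share of all genes at that unadjusted p was not counted for these fits. With median-ratio scaling the median of all genes moved from 0.15 to -0.05 and the shares of all genes called to 11.7% higher and 12.7% lower, while 7 members were called higher and 15 lower.

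Among the members that rose, Cpr49Ac had by far the highest level. It measured 644, 522 and 519 RPKM at blue gut against 4232, 1702 and 3830.1 RPKM at clear gut. The blue gut libraries were close to each other, and at clear gut Cmi depletion stood well below the other two. The ratio of the stages was 6.57 (6.50 to 6.64) in wild type, 3.26 (3.22 to 3.30) in Cmi depletion and 7.38 (7.29 to 7.47) where Trr was labelled as depleted. Limma gave a log2 change of 2.43 (SE 0.26, adjusted p = 0.00586). By RPKM the gene ranked 165th, 180th and 179th of all entries at blue gut, whereas its clear gut ranks were 10th, 18th and 7th.

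Cpr12A (gene 32309, chromosome X, 13543643 to 13544907) rose by a similar amount in each genotype. It measured 32.7, 14.0 and 12.1 RPKM at blue gut against 161, 103 and 81.6 RPKM at clear gut, with wild type highest at both stages. Its log2 changes were 2.27, 2.79 and 2.66 (limma 2.57, SE 0.15, adjusted p = 0.00282). Cpr47Ee (gene 36193) went from near absence to a moderate level. It had 7, 5 and 12 reads at blue gut against 438, 393 and 126 at clear gut, which is 0.216, 0.151 and 0.368 RPKM against 12.9, 11.2 and 3.76 RPKM. The stage ratio was 59.8 (28.8 to 149.6), 74.2 (31.5 to 229.5) and 10.2 (5.66 to 20.3), and the intervals show that the low blue gut counts limit its precision. Limma gave 2.91 (SE 0.38, adjusted p = 0.00881), a call that ends without the Cmi depletion libraries (adjusted p = 0.0609).

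The Tweedle gene TwdlE (gene 34075, chromosome 2L, 7857957 to 7860839) was the other steady riser. It measured 2.38, 4.92 and 4.57 RPKM at blue gut against 13.4, 23.7 and 17.2 RPKM at clear gut. Unlike Cpr12A, it was lowest in wild type at both stages. Limma gave a log2 change of 1.96 (SE 0.15, adjusted p = 0.00343). TwdlE overlaps lectin-28C on the opposite strand and has values at 0.5 of a read, and whether counting used strand is not given in the sources used here. Cpr49Ag (1.49), Cpr65Ec (1.46), Cpr66D (1.32) and Cpr97Ea (1.19) also rose on the log2 scale. Cpr49Ag measured 16.7, 11.4 and 10.98 RPKM at blue gut against 56.1, 39.7 and 24.0 RPKM at clear gut. The call of Cpr65Ec (adjusted p = 0.0242) ends without the libraries labelled Trr depletion (0.072) and with median-ratio scaling (0.0553).

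**Figure D2:**
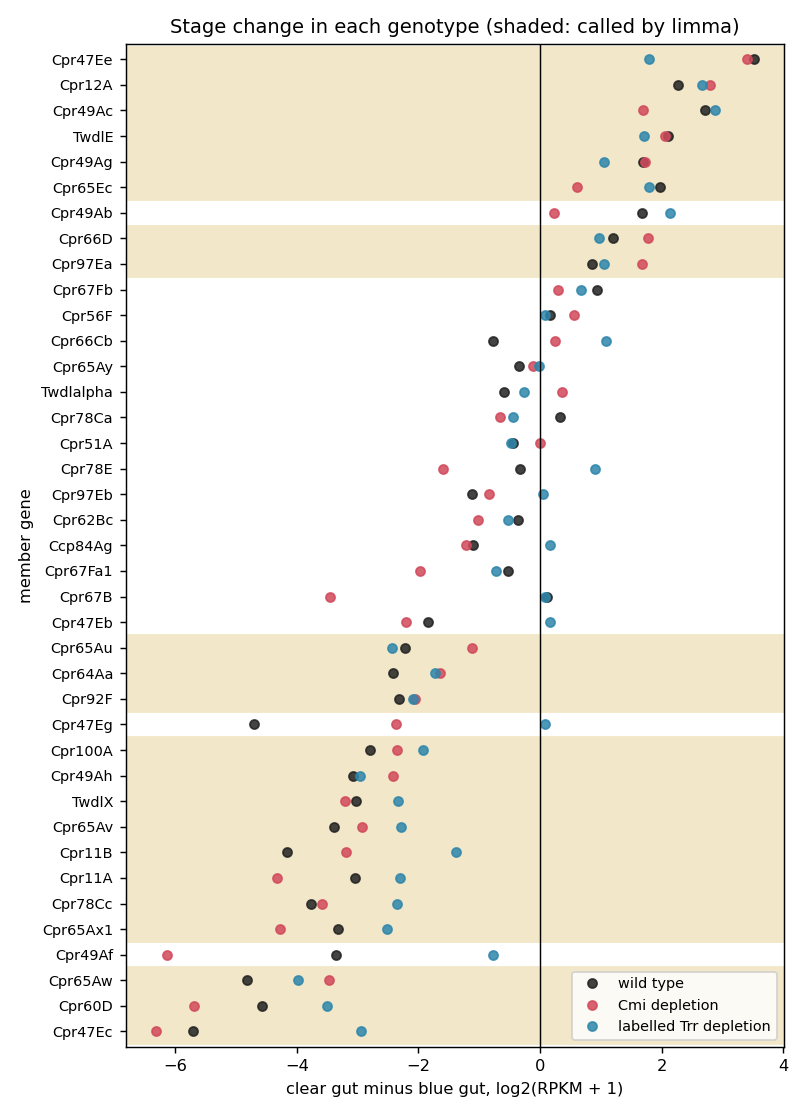
Difference between clear gut and blue gut in log2(RPKM + 1) for each of the 39 tested members, with 1 point per genotype and shading for the 22 members called by limma. In the called members the 3 points lie on the same side of 0, and Cpr67B, Cpr78E, Cpr49Af and Cpr47Eg show the widest gaps between genotypes among the others.

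The members that fell were mostly genes of moderate level. Cpr47Ec (gene 36191) measured 94.7, 128 and 33.4 RPKM at blue gut against 0.836, 0.606 and 3.49 RPKM at clear gut. The groups did not overlap, and the fall was smallest in the libraries labelled Trr depletion, with a log2 change of -2.94 against -5.70 in wild type and -6.32 in Cmi depletion. Limma gave -4.99 (SE 0.72, adjusted p = 0.0128), which ends without the Cmi depletion libraries (adjusted p = 0.205). Cpr60D (gene 246492, chromosome 2R, 24662682 to 24663406) measured 159.7, 95.2 and 91.8 RPKM at blue gut against 5.75, 0.861 and 7.13 RPKM at clear gut. Its log2 change was -4.59 (SE 0.44, adjusted p = 0.00572, limma), and Cmi depletion had the lowest clear gut value. Cpr65Aw (gene 38706) had 264, 100 and 160 reads at blue gut against 0, 0 and 1 at clear gut. Set against 3 reads per library, the floor, it was 92.1-fold lower in wild type and 35.4-fold lower in Cmi depletion. The 95% counting limits put the fall at 74.35-fold or more and 28.23-fold or more.

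Cpr65Ax1, with 103, 173 and 123 RPKM at blue gut against 9.41, 8.01 and 20.6 at clear gut, fell by 3.37 on the log2 scale (SE 0.35, adjusted p = 0.00576, limma). It has a near copy, Cpr65Ax2, which had at most 12 reads in a library, and reads shared by the pair may have been split between them. Cpr92F had the smallest range of stage changes among the called members on the log2(RPKM + 1) scale, at -2.32, -2.06 and -2.09 (limma -2.16, SE 0.14, adjusted p = 0.003). It measured 17.3, 4.33 and 14.5 RPKM at blue gut against 2.66, 0.278 and 2.64 at clear gut, so Cmi depletion was the lowest at both stages. Cpr78Cc (-3.24), Cpr11A (-3.23), Cpr11B (-2.91), Cpr65Av (-2.86), TwdlX (-2.85) and Cpr49Ah (-2.81) fell by more than Cpr100A (-2.36), Cpr64Aa (-1.92) and Cpr65Au (-1.92). TwdlX, the most abundant Tweedle gene at blue gut, measured 14.2, 9.87 and 8.81 RPKM there and 0.879, 0.176 and 0.951 at clear gut. Cpr11B is the other fall that ends without the Cmi depletion libraries (adjusted p = 0.313).

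Changes were also counted by size in each genotype. Every count of members or genes at least 2-fold higher or lower is on the RPKM + 1 scale, so a low member can exceed 2-fold in plain RPKM without being counted. In wild type 8 members were at least 2-fold higher and 19 at least 2-fold lower at clear gut (14.8% and 9.25% of all genes tested). In Cmi depletion 7 and 22 were (8.68% and 10.4%). The libraries labelled Trr depletion had 9 and 14 (6.9% and 6.75%). In all 3 genotypes together 5 were higher and 14 lower (4.69% and 5.6% of all genes tested).

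The other 17 tested members were not called, and for some of these the genotypes went different ways. Cpr65Ay (gene 5740348), the member with the smallest change, measured 103, 88.5 and 70.6 RPKM at blue gut against 81.0, 81.2 and 70.3 at clear gut, a log2 change of -0.16 (SE 0.12). Cpr67B (gene 39081, chromosome 3L, 9404797 to 9406174) measured 60.1, 69.8 and 75.7 RPKM at blue gut against 64.8, 5.47 and 80.0 at clear gut. Its stage ratio was 1.08 (1.003 to 1.16) in wild type, 0.0783 (0.0654 to 0.0932) in Cmi depletion and 1.06 (0.9903 to 1.13) where Trr was labelled as depleted. The Cmi depletion library at clear gut was thus the only 1 of the 6 with a low value.

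Cpr78E measured 657, 293 and 434 RPKM at blue gut against 521, 95.8 and 809 at clear gut. Its stage ratio was 0.793 (0.772 to 0.816) in wild type, 0.327 (0.309 to 0.345) in Cmi depletion and 1.87 (1.82 to 1.92) where Trr was labelled as depleted. Cpr49Af (gene 36352) measured 58.5, 74.3 and 32.2 RPKM at blue gut against 4.85, 0.074 and 18.4 at clear gut, the last but one value being a single read. All clear gut values lay below all blue gut values, but the log2 changes of -3.35, -6.13 and -0.78 were too unlike for a call (adjusted p = 0.0699, limma), and without the libraries labelled Trr depletion the adjusted p was 0.0229. Cpr47Eg had 374, 64 and 2 reads at blue gut against 1, 1 and 3 at clear gut, so it was already near 0 at blue gut in the library labelled Trr depletion. Without the libraries labelled Trr depletion limma called Cpr47Eg lower (adjusted p = 0.0187). For Cpr47Eg and Cpr49Af that fit drops the genotype that disagreed, after the values were seen, and has 1 residual degree of freedom. Its p-values do not measure that disagreement, so both calls are a description. No test of a difference in stage change between genotypes can be had with 1 library per group.

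**Figure D3:**
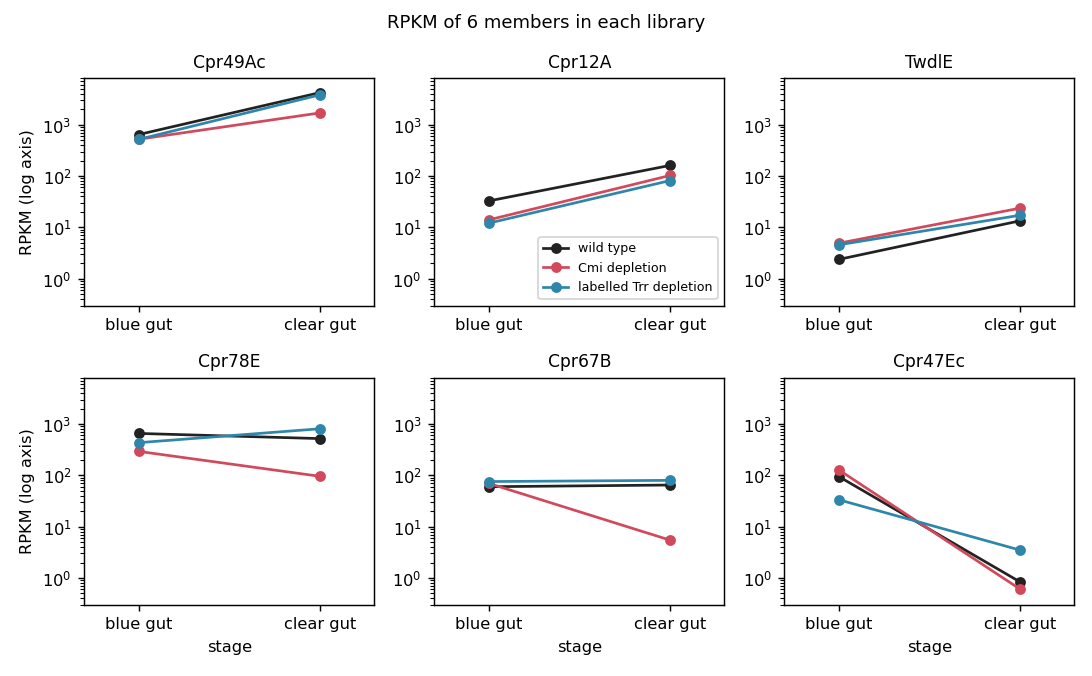
RPKM on a log axis, the same in every panel, for 6 members at blue gut and clear gut, with 1 line per genotype and 1 library per point. Cpr49Ac, Cpr12A and TwdlE go up in every genotype, Cpr47Ec goes down in every genotype, and Cpr78E and Cpr67B are lowest in Cmi depletion at clear gut.

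Many members lie in clusters, and in the 47E and 49A clusters called members went in both directions. In the 47E cluster, 7 genes within 26.7 kb (chromosome 2R, 11251751 to 11278445), Cpr47Ee rose while Cpr47Ec, 2 genes away, fell. Cpr47Eb and Cpr47Eg were not called, and Cpr47Ea, Cpr47Ed and Cpr47Ef were below the limit on the mean. In the 49A cluster, 8 genes within 38.5 kb (chromosome 2R, 12376626 to 12415170), Cpr49Ac and Cpr49Ag rose and Cpr49Ah fell. Of the others Cpr49Ab and Cpr49Af were not called. Cpr49Ab had 7, 1 and 2 reads at blue gut against 69, 5 and 78 at clear gut, so the Cmi depletion library was the lowest at clear gut.

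The 65A members, 7 genes within 30.3 kb (chromosome 3L, 6131242 to 6161589), were more alike. There Cpr65Au, Cpr65Av, Cpr65Aw and Cpr65Ax1 fell, 0 rose, and Cpr65Ay was not called. A pair of Tweedle clusters had low levels throughout. Of the 10 genes from TwdlM to TwdlD (chromosome 3R, 26619118 to 26641054) and the 3 from TwdlF to TwdlV, 0 reached the limit on the mean. The Tweedle cluster from TwdlX to Twdlalpha on chromosome X had 2 of 4 genes above it.

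**Figure D4:**
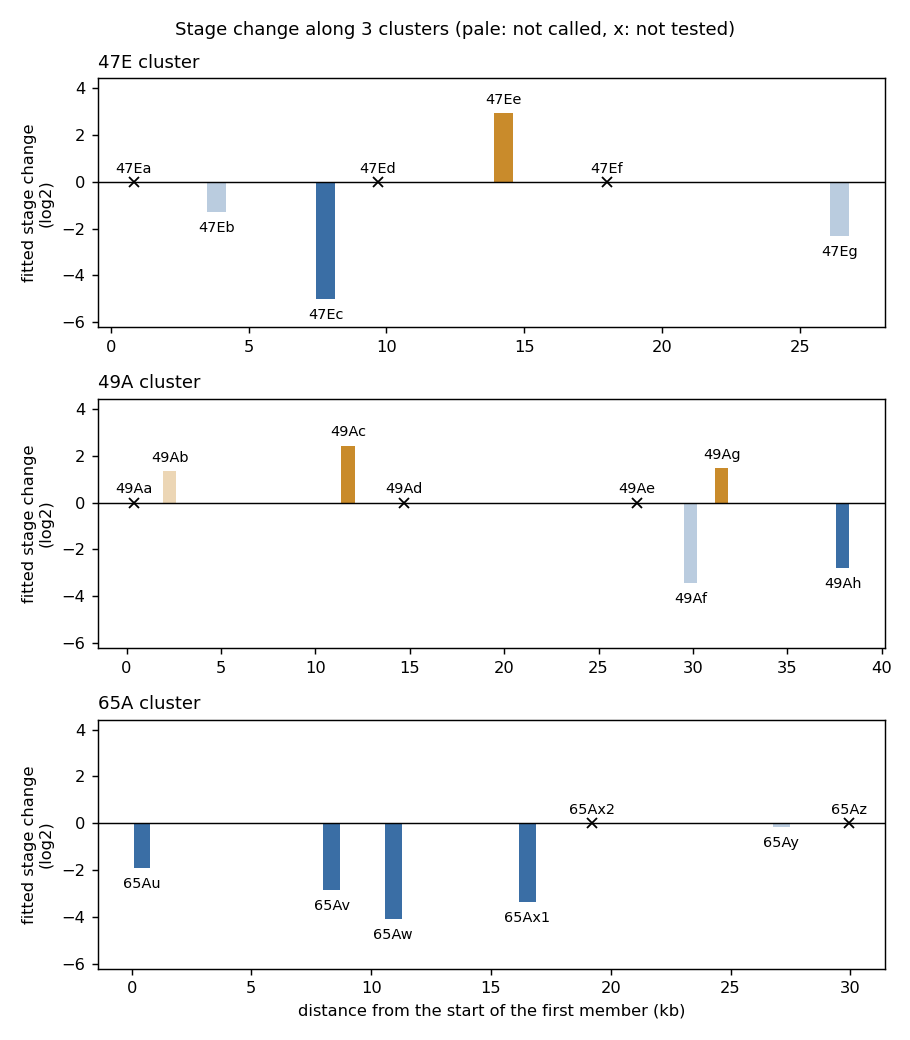
Fitted stage change (log2) of the members in the 47E, 49A and 65A clusters, placed by their distance in kb from the start of the first member. Bars above 0 rise at clear gut, pale bars were not called, and crosses were not tested. Called rises and falls lie within the same cluster in 47E and 49A, and the called members of 65A all fell.

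The Ccp84A genes, a cluster of 7 within 18.2 kb (chromosome 3R, 6686728 to 6704903), were all low. Ccp84Ag had 32, 35 and 42 reads at blue gut against 1, 0 and 52 at clear gut, so at clear gut the library labelled Trr depletion was the only 1 with more than 1 read. Limma did not call it (log2 -0.72, adjusted p = 0.148). Ccp84Aa measured 1.11, 0.434 and 0.412 RPKM at blue gut against 1.53, 0.895 and 0.669 at clear gut, and Ccp84Ab 1.38, 0.574 and 0.329 against 0.902, 0.188 and 0.518. Both have values at 0.5 of a read and belong to a family of similar sequences, so their levels are uncertain. Twdlalpha, the other tested Tweedle gene, measured 4.47, 3.60 and 5.26 RPKM at blue gut against 2.63, 4.91 and 4.19 at clear gut and was not called (log2 -0.17, adjusted p = 0.631). It overlaps CG32568 and goe.

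Of the 60 members below the limit, 25 never exceeded 3 reads in any library, and TwdlQ had 0 in all 6. In 4 of the 60 all clear gut libraries had more reads than all blue gut libraries, and in 4 they had fewer, where 13.9% and 4.82% of all entries below the limit did. These were chosen after their values were seen. Cpr72Ea had 5, 5 and 8 reads at blue gut against 25, 12 and 13 at clear gut. TwdlN had 43.5, 10 and 10 against 2, 1 and 3. Cpr49Aa had 3, 0 and 0 against 11, 4 and 8. The others, Cpr64Ac, TwdlW, TwdlC, TwdlBeta and Cpr5C, had at most 7 reads in a library. At this depth members with so few reads cannot be ordered further.

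The comparison of Cmi depletion with wild type asks which cuticle genes depend on the complex. More members were lower than higher, but none of the differences passed the test over both stages. Limma called 0 of the 39 (0.0872% of all genes tested were called higher and 0.0174% lower), and at an unadjusted p below 0.05 there were 1 higher and 11 lower (2.74% and 4.07% of all genes tested). The median log2 difference was -0.65, beside 0.13 for all genes tested. At blue gut 13 members were at least 2-fold lower and 1 higher (2.19% and 1.86% of all genes tested), and at clear gut 10 were lower and 0 higher (4.26% and 1.38%). The members 2-fold lower on the RPKM + 1 scale at both stages were Cpr62Bc, Cpr78E and Cpr92F (1.06% of all genes tested), and 0 were 2-fold higher at both (0.436%). At any size 22 were lower and 4 higher at both stages (15.3% and 41.1% of all genes tested).

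Cpr78E had the largest mean difference among members of constant direction, a log2 value of -1.79. At blue gut it stood at 0.447 (0.432 to 0.462) of wild type and at clear gut at 0.184 (0.175 to 0.194), and limma gave an adjusted p of 0.672. Cpr92F stood at 0.251 (0.213 to 0.294) and 0.105 (0.0541 to 0.186) of wild type, with a log2 difference of -1.65 and an adjusted p of 0.112. Cpr67Fa1 (-1.43, adjusted p = 0.523) and Cpr62Bc (-1.43, adjusted p = 0.24) followed. Wild type and Cmi depletion had 4.58 and 1.61 RPKM of Cpr62Bc early and 3.32 and 0.282 RPKM late in wandering. Without the blue gut library of Cmi depletion limma called 7 members lower (2.5% of all genes tested in that fit), among them Cpr67Fa1 (adjusted p = 0.00302), Cpr62Bc (0.0108) and Cpr92F (0.0132). That fit rests on the clear gut library alone for Cmi depletion and assumes that it varies like the others. Without the clear gut library it called 1, Cpr92F (0.0277), and 0.271% of all genes tested.

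At clear gut the Cmi depletion library was at least 2-fold below both other libraries, on the RPKM + 1 scale, for 7 of the 39 members (3.16% of all genes tested), a count made after seeing the values. They were Cpr49Ab, Cpr49Ac, Cpr49Af, Cpr60D, Cpr67B, Cpr78E and Cpr92F, both risers and fallers. Cpr67B stood at 0.0844 (0.0705 to 0.1005) of wild type there and Cpr49Ac at 0.402 (0.399 to 0.405). The epidermal markers did not show this: their summed level at clear gut was 335.5 RPKM in wild type, 318.6 in Cmi depletion and 202.8 in the library labelled Trr depletion. Muscle markers did, at 364.7, 145.0 and 620.5 RPKM, and so did blood cell markers at 22.2, 6.1 and 15.9. Salivary gland markers had 16977.4, 2455.1 and 13496.7 RPKM. The 24 cuticle genes outside the rule, mostly Lcp genes, summed to 6814.8, 4853.6 and 7064.0 RPKM at blue gut against 1447.2, 166.7 and 1671.2 at clear gut. In Cmi depletion at clear gut that sum was mostly Muc26B (79.4 RPKM) and Gasp (54.4 RPKM), which are not Lcp genes. At blue gut Lcp3 alone measured 20.3, 546 and 2669 RPKM. The part of these markers and cuticle genes in the result was not tested.

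**Figure D5:**
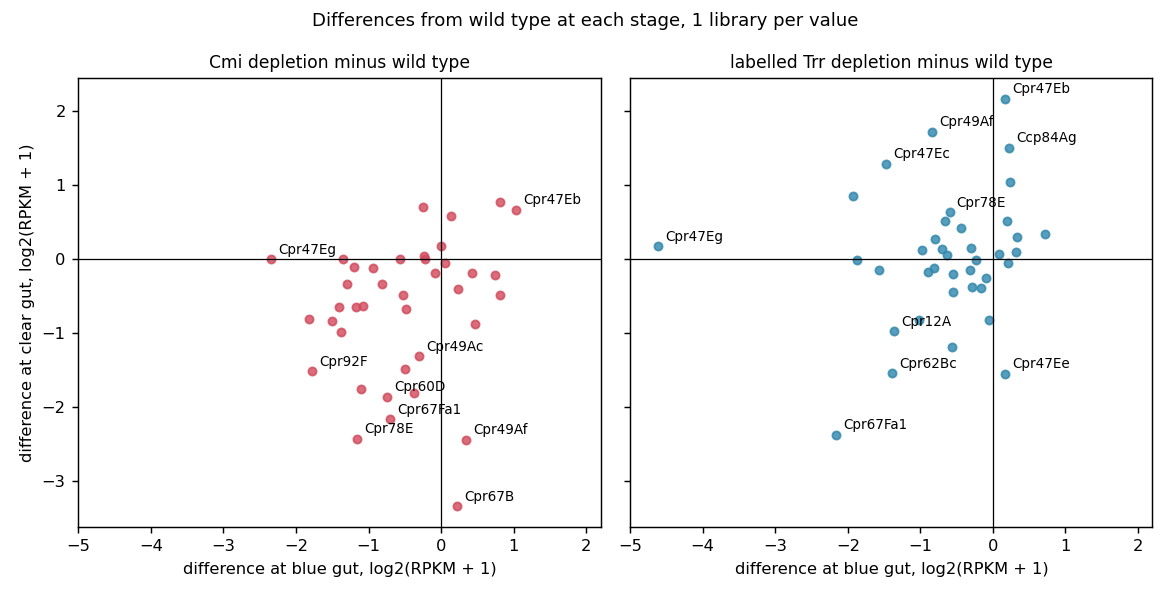
Difference from wild type in log2(RPKM + 1) at blue gut (horizontal) and clear gut (vertical) for the 39 tested members, with Cmi depletion on the left and the libraries labelled Trr depletion on the right. Most Cmi points lie below 0 at clear gut, with Cpr67B lowest, while the Trr points lie on both sides. Both panels share the wild-type libraries.

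The libraries labelled Trr depletion were compared with wild type in the same way. At blue gut 9 members were at least 2-fold lower and 0 higher (2.17% and 1.66% of all genes tested), whereas at clear gut 4 were lower and 5 higher (1.27% and 2.4%). Limma called 0 of the 39 over both stages (0.0523% of all genes tested were called higher and 0.0% lower), with 1 higher and 5 lower at an unadjusted p below 0.05 (4.22% and 2.66% of all genes tested). At both stages 2 members were 2-fold lower and 0 higher (0.436% and 0.619% of all genes tested), and at any size 17 were lower and 8 higher (13.0% and 49.6%). The wild-type libraries are shared with the comparison of Cmi depletion. The 5 higher at clear gut on the RPKM + 1 scale were Ccp84Ag, Cpr47Eb, Cpr47Ec, Cpr49Af and Cpr65Ax1. Cpr47Eb measured 13.4, 28.7 and 15.3 RPKM at blue gut against 3.04, 5.44 and 17.2 at clear gut, and Cpr47Ec stood at 4.17 (1.89 to 10.5) times wild type at clear gut.

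Cpr67Fa1 had the largest lower value over both stages. It measured 64.8, 39.5 and 13.7 RPKM at blue gut against 45.0, 9.27 and 7.86 at clear gut, so wild type was highest at each stage. In the libraries labelled Trr depletion it stood at 0.211 (0.179 to 0.249) and 0.175 (0.141 to 0.215) of wild type, a log2 difference of -2.27 (adjusted p = 0.369, limma). Without the Cmi depletion libraries the adjusted p was 0.00114, and Cpr62Bc (0.0129) and Cpr12A (0.0285) were also called lower in that fit, as were 0.402% of all genes tested. That fit has 1 residual degree of freedom and leans on the spread borrowed from all genes. Its prior degrees of freedom were 7.75, against 2.75 with all libraries, and 107 genes were called in either direction instead of 6. These calls are a description. Cpr62Bc (-1.47, adjusted p = 0.303) and Cpr12A (-1.17, adjusted p = 0.297) were next in size among members of constant direction at both stages, with Cpr47Eb (1.17, adjusted p = 0.633) as the largest higher value. Cpr67Fa2, the direct neighbour of Cpr67Fa1, had at most 1 read, and 0 of the 6 values of Cpr67Fa1 lay off whole reads. Whether reads shared by this pair were split between them was not tested.

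Between the depletions, limma called 0 members (0.0% of all genes tested in either direction), with 5 higher and 0 lower at an unadjusted p below 0.05 where Trr is the labelled target (2.9% and 1.39% of all genes tested). Among members of constant direction at both stages, the log2 values over Cmi depletion were largest for Cpr67B (1.88), Cpr78E (1.81), Cpr92F (1.53) and Cpr49Ab (1.02). At clear gut 13 members were at least 2-fold higher and 1 lower than in Cmi depletion (5.67% and 1.26% of all genes tested), and at blue gut 3 and 6 (1.11% and 1.47%). At both stages 1 was 2-fold higher and 0 lower (0.453% and 0.14%). Cpr78E at clear gut stood at 8.44 (8.03 to 8.88) times and Cpr67B at 14.6 (12.3 to 17.5) times Cmi depletion.

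Other genes of cuticle formation were set beside the members. Among all genes tested, limma called 24.2% higher and 11.1% lower at clear gut. Of 15 tested cuticle genes outside the rule, mostly of the Lcp clusters, limma called 9 lower and 0 higher at clear gut, with a median log2 change of -2.46. Pcp, a pupal cuticle gene, was not called; Cmi depletion was the lowest library at clear gut, with 3.96, 3.47 and 5.37 RPKM at blue gut against 27.5, 3.33 and 44.9 at clear gut. Of 15 tested regulators of the ecdysone cascade 12 were called higher and 1 lower. Blimp-1, a repressor of ftz-f1, rose from 0.285, 0.539 and 0.361 to 9.80, 8.87 and 6.74 RPKM. The 1 called lower was ftz-f1, a nuclear receptor, with a log2 change of -0.61 (adjusted p = 0.0451, limma). Of 23 tested genes of the chitin scaffold and of sclerotization, 10 were called higher and 2 lower. The largest rises on the log2 scale were those of e (8.35), ple (7.52) and b (5.75). The 2 called lower were obst-E (-3.22), a chitin-binding protein gene, and Cda4 (-0.89).

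Markers of the tissues in a whole larva also moved with stage, and their counts stand beside 24.2% of all genes tested called higher and 11.1% lower. Of 8 epidermal markers limma called 5 higher and 0 lower, and their summed level was 130.6 to 138.4 RPKM at blue gut and 202.8 to 335.5 at clear gut, with none at 0. Of 8 tested muscle markers 7 were called lower and 1 higher, and their sum went from 1979.3 to 2554.8 RPKM down to 145.0 to 620.5. All 8 midgut markers were called lower, from 13482.9 to 16976.1 RPKM down to 967.2 to 1738.8. Tracheal markers were called higher in 4 of 4 cases, with sums of 48.9 to 60.7 RPKM at blue gut and 116.4 to 161.0 at clear gut, and imaginal disc markers in 9 of 9, for example from 58.1 to 117.8 RPKM in Cmi depletion. Their part in the changes of the cuticle genes was not tested.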

How the data were processed

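The authors deposited 1 table of RPKM and gene lengths in bases. Per the labels' protocol, RNA was selected with oligo dT, sequenced on an Illumina HiSeq instrument and aligned with SOAPaligner/SOAP2, and Bowtie and dm6 are named in the submitters' processing notes. For the counting tool and the annotation, no source used here gives a name. A dash was read as 0. The deposited RPKM were scaled to reads on the listed genes, since RPKM times length sums to 1000000 in every column. Reads were recovered by searching for the depth that turns most values into whole reads: 82.8% to 84.7% of low values lay within 0.1 of a whole read, and nearly all others near 0.5 of a read. Of the 99 members, 9 had values mostly off whole reads and 4 could not be judged. Coordinates are from RefSeq (release 6, dm6), where all 99 gene identifiers were found, and 18 members overlap another annotated gene.

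Tests used limma 3.58.1 in R 4.3.3 (lmFit, eBayes with trend and robust) with a pseudocount of 1 and 2 residual degrees of freedom, two-sided, and were tested on simulated data. Intervals are Clopper-Pearson. Members named are the 10 largest called rises and falls by their smallest change over genotypes, the 3 most abundant per family, the 4 largest differences per genotype contrast, the 5 with the widest range of stage changes and the smallest change. Other members were named beside counts, clusters or copies after their values were seen. The members and gene lists were chosen with earlier results of these data known. Marker lists for fat body, midgut, muscle, salivary gland, discs, trachea, epidermis, blood and neurons were also summed. Alternatives were other pseudocounts, filters, scalings and fits, and leaving out libraries.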

Additional observations from a re-analysis of the deposited data

Results flagged for a closer look

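The stage change of 6 of the 99 members went in opposite directions in different genotypes, with counting intervals clear of 1 on both sides. The share of all genes that did so was not counted, so the 6 are a description. The difference was not tested, since each value rests on 1 library per stage. Cpr78E was higher at clear gut in the libraries labelled Trr depletion (ratio 1.87) and lower in wild type (0.793) and Cmi depletion (0.327). Cpr67B was 1.08 times its blue gut level in wild type, at the edge of its interval, and 0.0783 times in Cmi depletion. Twdlalpha was 1.365 (1.16 to 1.605) times in Cmi depletion and 0.589 (0.488 to 0.706) and 0.796 (0.681 to 0.930) times in wild type and the libraries labelled Trr depletion. Cpr66Cb was 8.76 (3.14 to 33.9) times its blue gut level in the libraries labelled Trr depletion, from 4 reads to 36, and 0.459 (0.302 to 0.688) times in wild type. Cpr78Ca was 1.28 (1.07 to 1.54) times in wild type, 0.583 (0.444 to 0.763) times in Cmi depletion and 0.7095 (0.571 to 0.880) times in the libraries labelled Trr depletion. Cpr72Eb, below the limit on the mean, was 4.785 (1.02 to 44.9) times in wild type, from 2 reads to 10, and 0.177 (0.0604 to 0.429) times in Cmi depletion.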

How the results depend on the processing

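Each group holds 1 library and the labels carry no replicate numbers, so the stages were paired by genotype only, through the genotype term of the fit. Of the 22 members called between stages, 22 were also called with a pseudocount of 0.1 or 5, without a filter, with quantile normalization, without trend and robust, and without the genotype term, and 21 with median-ratio scaling. A mean of at least 5 RPKM leaves 15 of them in the test, all called, with 5 higher and 10 lower (28.2% and 12.4% of all genes tested there). Leaving out 1 library gave 0 to 9 members called higher and 0 to 18 lower, and the 0 came from either wild-type library. The shares of all genes called in these fits were 0.0% to 21.0% higher and 0.0% to 10.7% lower. The median stage change ranged from -1.46 to -0.46 over the left-out libraries. It was -0.04 without a filter, -1.29 at a mean of 5 RPKM and -1.25 without both libraries labelled Trr depletion, an alternative chosen after seeing the data. Members lower in Cmi depletion numbered 0 to 7 with 1 library left out, those lower in the libraries labelled Trr depletion 0 to 3 (3 also without both Cmi depletion libraries), and those higher in the latter than in Cmi depletion 0 to 3. Members at least 2-fold higher in all genotypes numbered 8 with a pseudocount of 0.1 and 3 with 5, and 3 without entries off whole reads. Those 2-fold lower numbered 8 with a pseudocount of 5. The share of all genes was not counted for the 2-fold counts of these alternatives, so they are a description. With 1 library left out, the stage change of Cpr67B ranged from -1.69 to 0.09, that of Cpr78E from -0.97 to 0.28 and that of Twdlalpha from -0.43 to 0.05. The values above 0 came without either (or both) Cmi depletion libraries for Cpr67B and Cpr78E and without either wild-type library for Twdlalpha. A floor of 3 reads limits what can be said of the 60 members below the mean of 1 RPKM.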

Other observations

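Salivary gland markers, the glue genes, summed to 21790.1, 5553.1 and 8916.2 RPKM at blue gut against 16977.4, 2455.1 and 13496.7 at clear gut, in the order used above. The sum in Cmi depletion was thus lowest at both stages, and limma called 0 of these 6 genes in any comparison. Sgs7, at 1.60, 1.28 and 0.872 RPKM at blue gut, did not follow the sum. Fat body markers summed to 46182.6 to 55011.2 RPKM at blue gut against 28317.4 to 35758.4 at clear gut, with 4 of 6 tested genes called lower and 1 higher. Neuronal markers summed to 26.2 to 28.8 and 36.9 to 38.9 RPKM, with 2 of 3 called higher. Of 3 tested blood cell markers 2 were called lower and 1 higher at clear gut, where 24.2% of all genes tested were called higher and 11.1% lower.

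Members in which a library stood at least 2-fold apart from both others of its stage were counted after seeing the data. The wild-type library at blue gut was above both others for 5 of the 39 members (1.22% of all genes tested) and below both for 0 (0.767%). The library labelled Trr depletion at clear gut was above both others for 5 (1.44%) and below both for 1 (0.427%).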
